A study of Homo sapiens with 4 samples.

Results

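The enzymes that degrade tryptophan through kynurenine were examined in U937 cells, a human line established from a histiocytic lymphoma and used as a model of monocytes. The members are 9 genes taken by symbol from the deposited table of 60662 genes, namely TDO2, IDO1, IDO2, AFMID, KYNU, KMO, HAAO, QPRT and AADAT. All 9 were found, 6 passed the filter on low counts and 3 were listed at 0 in every library. RNA was measured in 2 libraries from cells cultured for 72 h with 10 nM phorbol 12-myristate 13-acetate (PMA), an activator of protein kinase C, and in 2 libraries from cells cultured without PMA. The labels give macrophage-like differentiation as the aim of the PMA treatment. Each group holds 1 library of lot 1 and 1 library of lot 2, and no transgene or other agent is named for either group. The members were chosen by their place in the pathway after the counts of PMA and untreated cells were known, those of TDO2 among them. Their values in this contrast are therefore a description, and no p-value is given for them.

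Most tryptophan that is not built into protein is oxidised along the kynurenine pathway. TDO2 and the indoleamine dioxygenases IDO1 and IDO2 open the indole ring, and AFMID releases kynurenine. Kynurenine is then hydroxylated by KMO and cleaved by KYNU on the way, through HAAO and QPRT, to NAD, or is turned into kynurenic acid by aminotransferases such as AADAT. TDO2 is best known as a liver enzyme, whereas IDO1 is the form that interferon-gamma induces in macrophages and dendritic cells.

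TDO2 and KYNU are the members whose levels stood furthest apart between PMA and untreated cells, so the bases before their start sites are shown first. The sequences are the 250 bases before the RefSeq start of each gene (GRCh38.p14, plus strand, chr4:155903446-155903695 for TDO2 and chr2:142877414-142877663 for KYNU), with motif matches in capitals. The gene table does not tell which start site was used.
TDO2: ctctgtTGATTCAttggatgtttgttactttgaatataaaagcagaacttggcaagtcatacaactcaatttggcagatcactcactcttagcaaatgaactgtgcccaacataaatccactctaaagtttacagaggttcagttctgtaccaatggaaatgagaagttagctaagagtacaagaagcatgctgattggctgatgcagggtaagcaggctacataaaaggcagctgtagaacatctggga
KYNU: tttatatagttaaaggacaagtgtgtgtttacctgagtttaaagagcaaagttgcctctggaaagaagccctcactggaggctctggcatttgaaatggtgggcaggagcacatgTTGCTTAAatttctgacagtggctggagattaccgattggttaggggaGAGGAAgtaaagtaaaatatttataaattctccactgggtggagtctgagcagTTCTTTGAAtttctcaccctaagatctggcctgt

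In the TDO2 window the capitals mark 1 match to TGANTCA, a loose form of the AP-1 site that allows any base in the middle. The TPA response element, the AP-1 site through which phorbol esters act, has G or C there. The match begins 244 bases before the start and reads TGATTCA, with T in the middle, so it departs from that element. The most common form of that site, TGAGTCA, was not found in the window of any member. Of 35116 promoter entries, 6.57% held TGANTCA and 4.2% held TGAGTCA in the same window. In the KYNU window the capitals mark, from left to right, a match to the C/EBP motif TTGCNNAA (9.05% of entries), to the PU.1 core GAGGAA (23.6%) and to the gamma-activated sequence TTCNNNGAA (6.57%). Matches to the EGR motif GCGNGGGCG and to the interferon-stimulated response element, the NF-kB motif and the glucocorticoid response element were found in no member's window (8.41%, 3.02%, 0.527% and 0.327% of entries). Both strands were searched, 7 of the 9 members had promoter entries, and GAGGAA also occurred in the windows of AFMID and QPRT. A match describes the letters and not a bound site.

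Total counts were 35739833 to 54915928 per library. Levels are CPM, the counts scaled to a common library size after TMM normalisation. Myeloid markers were present in all 4 libraries. CD33, a myeloid surface lectin, had 72.7 and 66.1 CPM with PMA and 62.3 and 71.1 CPM without, and ANPEP (CD13), a myeloid aminopeptidase, rose to 2901 and 2638 CPM with PMA, against 515 and 425 CPM without (adjusted p = 0.0244 by edgeR). SPI1, the myeloid transcription factor PU.1, had 307 and 343 CPM with PMA and 126 and 164 CPM without (adjusted p = 0.0878). LYZ had 211 and 126 CPM with PMA and 136 and 905 CPM without (adjusted p = 0.330), so its lots differed in direction. PTPRC, FCGR1A and CD4 were higher with PMA in both lots and were not called. T cell and fibroblast markers were listed at 0 in every library. Of 12 hepatocyte markers, 9 were at 0 in every library, albumin (ALB) and the tyrosine aminotransferase TAT among them, and the whole list summed to 0.184 and 0 CPM with PMA and to 3.85 and 2.80 CPM without. Since these are bulk libraries, fewer cells of a kind and less RNA per cell cannot be told apart.

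Of the 3 genes for the first step, TDO2 alone had counts. TDO2 (ENSG00000151790.9) had 24381 and 12561 counts in PMA-treated cells of lots 1 and 2, against 0 and 0 counts in untreated cells. This was 748 and 272 CPM with PMA, while a count of 0 allows up to 3 counts, or 0.0475 and 0.0695 CPM, in the untreated libraries. The groups did not overlap, and within lots the level was at least 15761-fold higher with PMA in lot 1 and at least 3907-fold higher in lot 2. These bounds cover counting error only. Ranked by count, TDO2 stood at position 160 of 20820 detected genes in the PMA library of lot 1 and at position 663 of 19939 in that of lot 2.

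The PMA libraries differed from each other in TDO2 by 2.75-fold, lot 1 being the higher. The corresponding ratio for KYNU was 1.28. TDO2 averaged 510 ± 337 CPM with PMA (SD, n = 2), so its size in PMA-treated cells is known less well than its presence there. ASIC5, a gene that lies on the opposite strand within the annotated span of TDO2, was at 0 in all 4 libraries. The nearest protein-coding gene before TDO2, GUCY1B1, was at 0 in all 4 libraries too, and the next one after it, the cathepsin gene CTSO, had 11.0 and 8.89 CPM with PMA and 1.57 and 0 CPM without.

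IDO1 (ENSG00000131203.13) and IDO2 (ENSG00000188676.13) were listed at 0 in both PMA libraries and in both untreated libraries. With 3 counts as the limit, up to 0.0921 and 0.0649 CPM would have been missed in the PMA libraries of lots 1 and 2. A listed 0 may be an estimate that failed, since each library had 0 to 3 genes at 0 that reached 20 CPM or more in all of the others. That count does not cover genes at 0 in several libraries, as IDO1 and IDO2 were, and TDO2 without PMA. Whether their 0 values are such estimates was not tested.

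**Figure D1:**
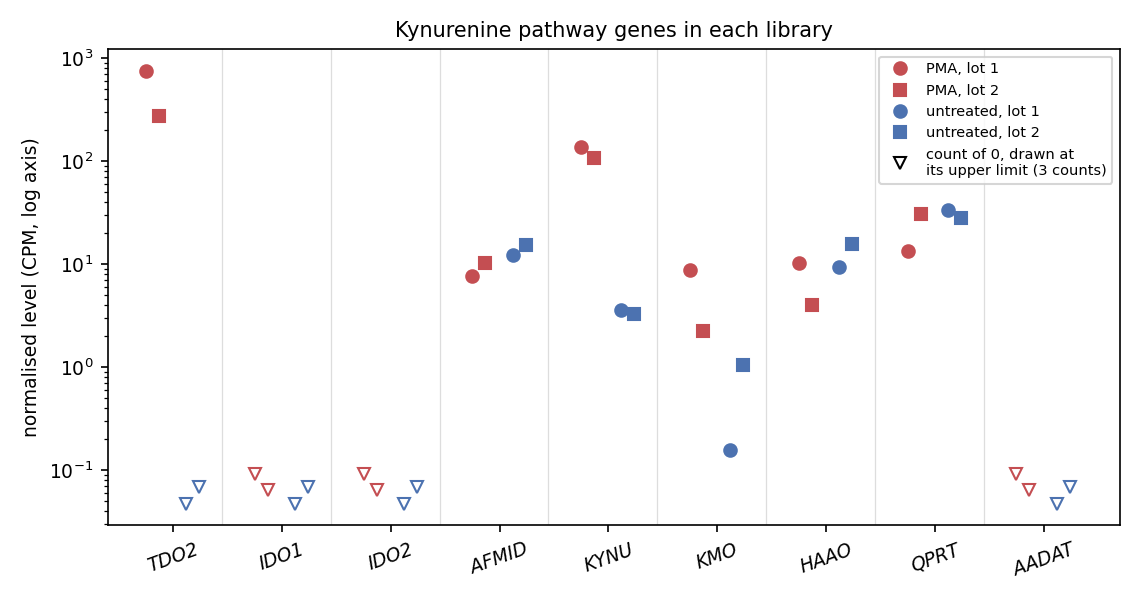
Normalised level (CPM, log axis) of the 9 kynurenine pathway genes in each of the 4 libraries, 1 point per library. TDO2 stands at 748 and 272 CPM with PMA and at 0 without, KYNU is higher with PMA in both lots, and IDO1, IDO2 and AADAT are at 0 throughout, drawn as open triangles at the limit that 3 counts set.

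For the second step the values lay slightly the other way, and the change was not called. AFMID (ENSG00000183077.15), the formamidase that frees kynurenine, had 7.61 and 10.2 CPM with PMA and 12.4 and 15.3 CPM without. Both PMA libraries lay below both untreated libraries, as in 29.4% of all genes tested, with a fitted log2 fold change of −0.64 ± 0.46 (SE). The ratio of PMA to untreated was 0.616 in lot 1 and 0.666 in lot 2.

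KYNU (ENSG00000115919.15) encodes kynureninase, which cleaves kynurenine and 3-hydroxykynurenine to anthranilic acids. It had 4468 and 4954 counts in PMA-treated cells and 226 and 142 counts in untreated cells, or 137 and 107 CPM with PMA and 3.58 and 3.29 CPM without. The level was 38.3-fold higher with PMA in lot 1 and 32.6-fold higher in lot 2. Among the members with counts in both groups, KYNU had the narrowest standard error (5.15 ± 0.40, log2 fold change), and its groups were far from overlapping.

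KMO (ENSG00000117009.12), the kynurenine hydroxylase of the outer mitochondrial membrane, had 283 and 104 counts with PMA and 10 and 45 counts without, or 8.68 and 2.25 CPM with PMA and 0.158 and 1.04 CPM without. Both PMA libraries lay above both untreated libraries, as in 31.0% of all genes tested. The lots disagreed on the size, with a ratio of 54.9 in lot 1 and 2.16 in lot 2. The 10 untreated counts of lot 1 have an exact 95% Poisson interval of 4.80 to 18.4 counts, and the 45 of lot 2 one of 32.8 to 60.2. In GENCODE release 29 KMO shares 1691 of 5946 exonic bases with OPN3 on the opposite strand. OPN3 had 1586 and 2080 counts with PMA and 2004 and 1155 counts without. Whether the counting used strand is not stated, so reads of KMO and OPN3 may not have been told apart.

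The later enzymes HAAO and QPRT had lower means with PMA, but the lots differed in direction for each. HAAO (ENSG00000162882.15), the dioxygenase that makes the precursor of quinolinic acid, had 10.2 and 4.02 CPM with PMA and 9.29 and 15.8 CPM without. Its groups overlapped, the fitted log2 fold change was −0.82 ± 0.66, and the ratio of PMA to untreated was 1.10 in lot 1 and 0.255 in lot 2. QPRT (ENSG00000103485.19), which turns quinolinic acid into the first mononucleotide of the NAD route, had 13.4 and 30.4 CPM with PMA and 33.4 and 28.0 CPM without. Its groups overlapped as well (−0.49 ± 0.52, log2 fold change), with ratios of 0.402 in lot 1 and 1.08 in lot 2. In the GENCODE annotation used here, QPRT shares 572 of 3642 exonic bases with AC009086.2 on the same strand. No counts, not even 0, were available for AC009086.2, so it may be missing from the authors' annotation. Whether this overlap affected the counts of QPRT was not tested. AADAT (ENSG00000109576.14), an aminotransferase that forms kynurenic acid, was listed at 0 in all 4 libraries.

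**Figure D2:**
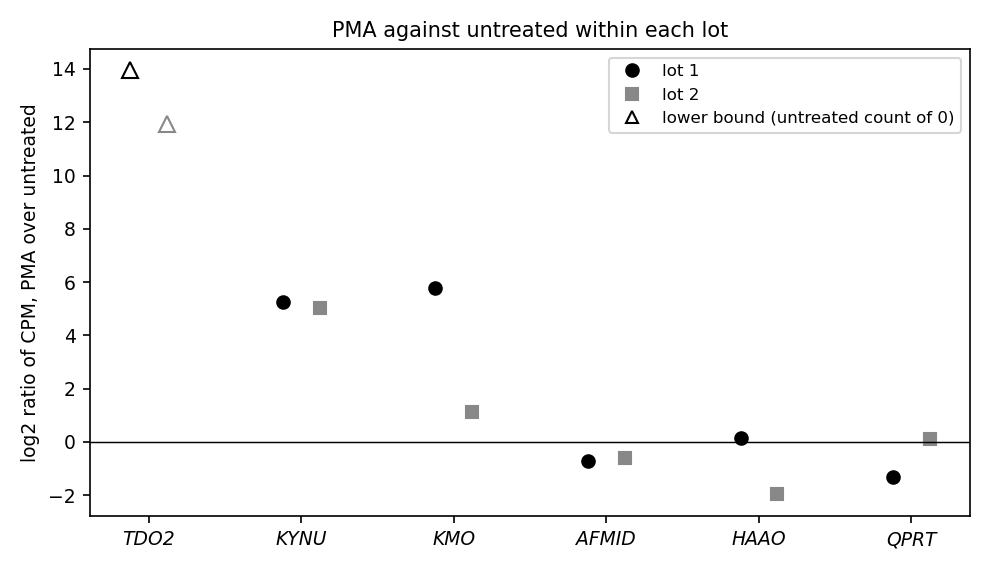
Log2 ratio of CPM, PMA over untreated, within lot 1 and lot 2 for the 6 members with counts, with open triangles for lower bounds. TDO2, drawn at its bounds, and KYNU are far above 0 in both lots, KMO differs in size between lots, and HAAO and QPRT lie on opposite sides of 0 in the lots.

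Across the set, 3 members were higher and 1 lower with PMA without overlap of the groups, and 2 overlapped. Of all 16451 genes tested, 60.4% did not overlap, 31.0% being higher and 29.4% lower with PMA. In edgeR's quasi-likelihood fit over these genes, 2 of the 6 tested members, TDO2 and KYNU, were called higher and 0 lower, against 6.30% of all genes called in either direction. DESeq2, limma-voom and each of the other alternatives also called these 2 and no member lower. Because the set was chosen with this contrast known, nothing is read from these counts. The authors' deposited table, made from the same 4 libraries, called 2 of the 9 members, of which 3 were at 0 in every library. Its log2 ratio of PMA to untreated was 5.14 for KYNU, and its ranks were 10 for TDO2 and 138 for KYNU. The share of all genes called there was not counted, and nothing is read from these calls and ranks either.

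Levels can be compared between genes only per transcript length, taken here from the principal transcripts of GENCODE release 29. In PMA-treated cells TDO2 had the highest level of the set, 440 and 160 CPM per kb in lots 1 and 2. KYNU has principal transcripts of 1576 and 15316 bases, so its level was 87.0 and 68.0 CPM per kb by the shorter and 8.95 and 6.997 by the longer. QPRT, AFMID and HAAO ranged from 3.18 to 13.0 CPM per kb with PMA, and the order of these 3 differed between the lots. KMO was the lowest of the detected members at 1.65 and 0.428 CPM per kb. TDO2 made up 80.5% and 63.8% of the summed CPM per kb of the set with PMA, or 93.9% and 84.4% with the longer KYNU transcript. In untreated cells QPRT and HAAO had the highest levels, 14.3 and 12.0 CPM per kb for QPRT and 7.34 and 12.5 for HAAO, followed by AFMID at 7.14 and 8.83 CPM per kb. The ranges of QPRT and HAAO overlapped, as did those of HAAO and AFMID, so the order of these neighbours is not settled by the spread between lots.

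**Figure D3:**
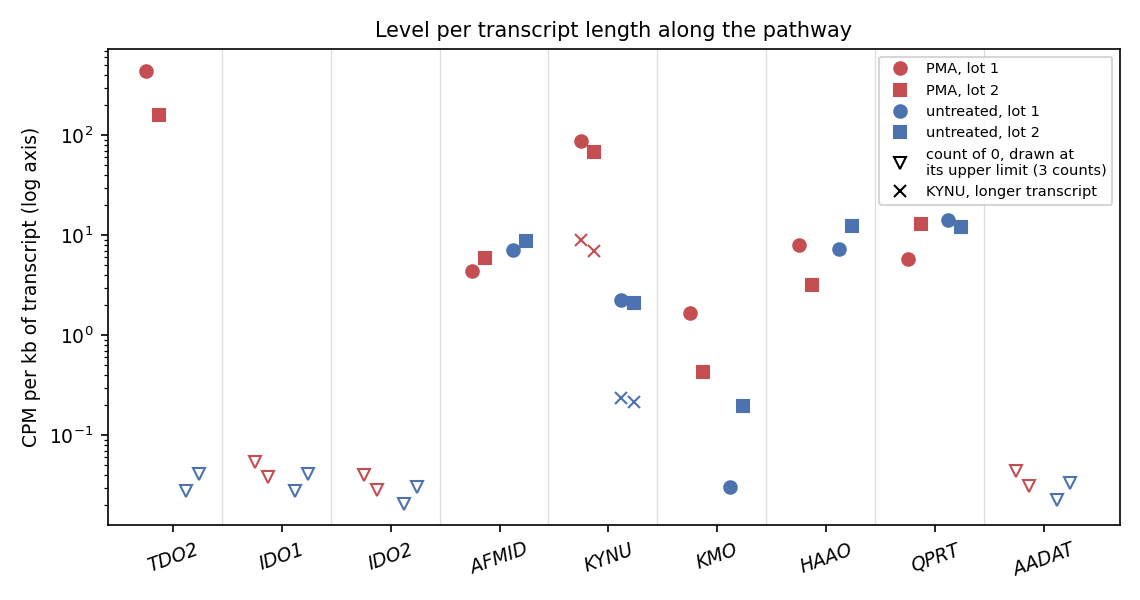
CPM per kb of transcript (log axis) for the 9 genes in each library, with crosses for KYNU by its longer transcript. TDO2 is the highest member with PMA, at 440 and 160 CPM per kb, and QPRT, HAAO and AFMID are the highest without.

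The genes whose profile over the 4 libraries was closest to that of TDO2, by Euclidean distance of log2(CPM + 1), were CHIT1 (distance 1.08), MMP19 (1.37), RGS1 (1.44), TREM2 (1.47) and EGR2 (1.47). CHIT1, the chitotriosidase of lipid-laden macrophages, had 395 and 380 CPM with PMA and 0.222 and 0 CPM without. For KYNU the closest were SEMA7A (0.742), AC004988.1 (0.743), FCGR2B (0.747), CYTIP (0.801) and SLC31A2 (0.839). FCGR2B, the inhibitory Fc gamma receptor, had 176 and 92.2 CPM with PMA and 3.66 and 5.59 CPM without. For KMO, at low levels, they were CELSR1 (0.743), FMO4 (0.831), LINC00504 (0.890), ITGA11 (0.904) and ADAM12 (0.935).

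Genes around the pathway were read from 9 lists of 89 genes, present as 91 entries, of which 70 were tested. P-values of edgeR's quasi-likelihood fit were adjusted over all genes. By these, 13 of the 70 were higher with PMA and 3 lower, against 4.29% and 2.02% of all genes tested. The 9 lists were chosen with earlier results of these data known, so nothing is read from these shares or from the calls per list. The median log2 fold change over all genes tested was 0.00. The rule for naming genes took up to 3 of each list by p. The other called genes, IFNGR1 and IFNGR2, were added after their values were seen. So were ASNS, ATF4, CHAC1, DDIT3, TRIB3, SESN2, EIF2AK4, CD33, LYZ, PTPRC, FCGR1A, WARS1, KYAT1 and AHR. The libraries are not stated to come from separate cultures, so a p-value here covers no more than the spread of the 4 libraries, which may be technical.

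Among enzymes that use tryptophan or its products in other ways, 1 of 4 tested rose and 0 fell. No median is given, since it would lie between WARS1 and a fold against 0 counts. IL4I1, a secreted amino acid oxidase that acts on phenylalanine and tryptophan, had 624 and 1135 CPM in PMA-treated cells and 1.03 and 0 CPM in untreated cells (10.67 ± 1.83, adjusted p = 0.0408 by edgeR). Its adjusted p was 0.0544 with the lot as a block and 0.000541 to 0.0544 over all alternatives. IL4I1 shares 336 exonic bases with NUP62 on the same strand and 75 with ATF5 on the opposite one, so its counts are uncertain. ATF5 had 185 and 223 CPM with PMA and 8.64 and 39.9 CPM without (adjusted p = 0.0818). ATF5 passed without untreated replicates 1 and 2 in turn (adjusted p = 0.0234 and 0.0156), with DESeq2 (0.000374) and with limma-voom (0.0314), within a range of 0.000374 to 0.150. The monoamine oxidase gene MAOA had 2.18 and 1.62 CPM with PMA and 0 and 0 CPM without (adjusted p = 0.0532). MAOA passed without untreated replicate 1 (adjusted p = 0.0438), with DESeq2 (0.0004) and with limma-voom (0.0365), within a range of 0.0004 to 0.185. The mitochondrial tryptophanyl-tRNA synthetase gene WARS2 averaged 11.9 ± 0.474 CPM with PMA and 24.6 ± 5.66 CPM without (adjusted p = 0.192). Its cytoplasmic counterpart WARS1 averaged 182 ± 20.4 CPM with PMA and 223 ± 87.7 CPM without (adjusted p = 0.687).

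In the list of alternative kynurenine aminotransferases and the branch enzyme ACMSD, none of 2 tested genes passed by edgeR, and 0 of 2 were called with the lot as a block. GOT2, the mitochondrial aspartate aminotransferase, which can also transaminate kynurenine, had 78.1 and 83.2 CPM with PMA and 164 and 211 CPM without (−1.22 ± 0.31, adjusted p = 0.0822). It passed without untreated replicate 1 (adjusted p = 0.0352) and with DESeq2 (0.00712), within a range of 0.00712 to 0.514. KYAT3 averaged 19.7 ± 0.525 CPM with PMA and 22.1 ± 8.82 CPM without (adjusted p = 0.856). KYAT1 had 1 and 0 counts with PMA and 1012 and 0 counts without, so its untreated level rests on lot 1.

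None of 9 tested genes of NAD synthesis and salvage passed (median log2 fold change 0.12). NAMPT, the rate-limiting enzyme of NAD salvage from nicotinamide, had 304 and 235 CPM with PMA and 82.3 and 39.5 CPM without (2.14 ± 0.47, adjusted p = 0.0625). NAPRT, which starts the route from nicotinic acid, had 15.1 and 21.0 CPM with PMA and 50.5 and 104 CPM without (−2.10 ± 0.50, adjusted p = 0.0732). NMNAT3, an adenylyltransferase of the last step shared by the routes, had 2.09 and 2.96 CPM with PMA and 27.9 and 10.1 CPM without (adjusted p = 0.0734). All 3 had groups that did not overlap, as did 60.4% of all genes tested, and all 3 passed in some alternatives. The adjusted p was 0.0210 for NAMPT and 0.0201 for NAPRT without untreated replicate 1, 0.0493 for NAMPT with the lot as a block, and 0.0313 for NMNAT3 without untreated replicate 2. Over the alternatives it ran from 0.000153 to 0.237 for NAMPT, from 0.00109 to 0.335 for NAPRT and from 0.000486 to 0.257 for NMNAT3.

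Of 10 tested genes of enzymes that consume NAD, 2 rose and 1 fell (median log2 fold change 0.10). PARP9 and PARP14, ADP-ribosyltransferase family genes known to be induced by interferon, had 161 and 196 CPM and 200 and 213 CPM with PMA, and 6.91 and 13.5 CPM and 16.2 and 7.81 CPM without (4.13 ± 0.49 and 4.10 ± 0.50, both adjusted p = 0.0253). PARP9 shares 217 exonic bases with DTX3L on the opposite strand. PARP1, the DNA-damage-activated member, had 102 and 59.4 CPM with PMA and 341 and 399 CPM without (−2.20 ± 0.39, adjusted p = 0.0440). The call of PARP1 was lost without PMA replicates 1 and 2 in turn (adjusted p = 0.0835 and 0.245), without untreated replicate 2 (0.0560) and with the lot as a block (0.0580), within a range of 1.78e-05 to 0.245.

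Among transporters of tryptophan and kynurenine, 1 of 6 tested genes rose and 0 fell (median log2 fold change 0.44). SLC7A8, the LAT2 transporter of neutral amino acids, had 271 and 195 CPM with PMA and 9.26 and 13.0 CPM without (4.39 ± 0.41, adjusted p = 0.0203). SLC7A5, the LAT1 transporter, averaged 195 ± 25.6 CPM with PMA and 331 ± 132 CPM without (adjusted p = 0.294). SLC7A11, the cystine and glutamate exchanger that can also carry kynurenine, had 366 and 103 CPM with PMA and 27.9 and 7.14 CPM without (3.74 ± 0.96, adjusted p = 0.0824). SLC7A11 passed when the lot was a block (adjusted p = 0.0336), without untreated replicate 1 (0.0413) and without PMA replicate 2 (0.0342), within a range of 4.99e-05 to 0.209.

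Kynurenine and kynurenic acid are ligands of the aryl hydrocarbon receptor. In that list 1 of 9 tested entries rose and 0 fell (median log2 fold change 0.95). The entry that rose was 1 of 2 named AHRR, the repressor of the receptor (ENSG00000286169.1), with 126 and 116 CPM with PMA and 31.3 and 19.1 CPM without (2.26 ± 0.40, adjusted p = 0.0426). The other AHRR entry (ENSG00000063438.17) had 3.84 and 2.25 CPM with PMA and 1.96 and 0 CPM without, and reads may have been split between the entries. The call was lost without PMA replicates 1 and 2 in turn (adjusted p = 0.189 and 0.165), within a range of 1.82e-06 to 0.189. The receptor gene AHR itself had 88.3 and 57.6 CPM with PMA and 50.3 and 10.6 CPM without (adjusted p = 0.380). NQO1, a target of the receptor, averaged 147 ± 61.3 CPM with PMA and 75.8 ± 0.347 CPM without (adjusted p = 0.214). GPR35, a receptor for kynurenic acid, had 35.7 and 28.2 CPM with PMA and 9.27 and 13.9 CPM without (adjusted p = 0.107).

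Of 10 genes of the amino acid stress response, which is engaged when tryptophan runs short, 2 rose and 0 fell (median log2 fold change −0.15). ATF3 had 197 and 237 CPM with PMA and 3.47 and 0.811 CPM without (6.65 ± 0.87, adjusted p = 0.0274). DDIT4, an inhibitor of mTORC1, had 60.9 and 95.8 CPM with PMA and 15.4 and 11.6 CPM without (2.54 ± 0.43, adjusted p = 0.0398). The call of DDIT4 was lost without PMA replicates 1 and 2 in turn (adjusted p = 0.0855 and 0.211), without untreated replicate 2 (0.0524) and with the lot as a block (0.0590), within a range of 3.52e-07 to 0.211. The third gene named by p was ATF5, given above. Other genes of the list were lower with PMA and were not called. ASNS had 29 and 12 counts with PMA and 2845 and 85 counts without (−5.37 ± 1.70, adjusted p = 0.122). ATF4 had 133 and 412 CPM with PMA and 488 and 726 CPM without (−1.16 ± 0.61, adjusted p = 0.304). The fitted changes of CHAC1, DDIT3 and TRIB3 were negative too, and those of SESN2 and EIF2AK4 were positive, without a call. Whether tryptophan ran short was not tested.

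Interferon-gamma is the classical inducer of IDO1. Of 11 tested genes of its axis, 4 rose and 1 fell (median log2 fold change 2.16), while IFNG itself, GBP1 and CXCL9 were listed at 0 in all 4 libraries, as was IDO1. The chemokine gene CXCL10 had 4.69 and 7.44 CPM with PMA and 0 and 0 CPM without (adjusted p = 0.0311, but 0.0549 when the lot was a block, in a range of 2.47e-08 to 0.0549). The receptor genes IFNGR1 (251 and 227 CPM with PMA, 56.2 and 30.8 CPM without, adjusted p = 0.0398) and IFNGR2 (101 and 129 CPM with PMA, 24.6 and 27.1 CPM without, adjusted p = 0.0368) rose. IRF8, a transcription factor of the myeloid and interferon systems, fell to 24.1 and 12.5 CPM with PMA, against 170 and 127 CPM without (−3.02 ± 0.47, adjusted p = 0.0357). Calls were lost without PMA replicate 1 or 2, with adjusted p of 0.126 and 0.110 for IFNGR1, 0.140 and 0.238 for IFNGR2, and 0.0509 and 0.153 for IRF8, while the lowest values over the alternatives were 5.92e-07, 2.68e-07 and 5.57e-08. IFNGR2 shares 380 exonic bases with TMEM50B on the opposite strand.

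Liver TDO2 is known to be induced by glucocorticoids. Among the glucocorticoid receptor and its targets, 2 of 9 genes rose and 1 fell (median log2 fold change 1.84). The kinase gene SGK1 had 584 and 790 CPM with PMA and 7.10 and 7.12 CPM without (6.59 ± 0.39, adjusted p = 0.0148), and the phosphatase gene DUSP1 had 44.3 and 157 CPM with PMA and 1.12 and 1.67 CPM without (6.17 ± 0.84, adjusted p = 0.0282). FKBP5, a receptor co-chaperone, fell to 12.5 and 14.6 CPM with PMA, against 109 and 58.8 CPM without (−2.63 ± 0.46, adjusted p = 0.0423). The call of FKBP5 was lost without PMA replicates 1 and 2 in turn (adjusted p = 0.183 and 0.187) and with the lot as a block (0.0588), within a range of 8.02e-07 to 0.187. Of the hepatocyte markers, HPD, an enzyme of tyrosine breakdown, was at 0 in both PMA libraries, against 2.97 and 2.80 CPM without PMA (at least 36.8-fold lower, adjusted p = 0.0455). That call was lost without untreated replicate 2 (0.0697), without PMA replicates 1 and 2 in turn (0.0650 and 0.0907) and with the lot as a block (0.0857), within a range of 4.15e-05 to 0.0907.

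**Figure D4:**
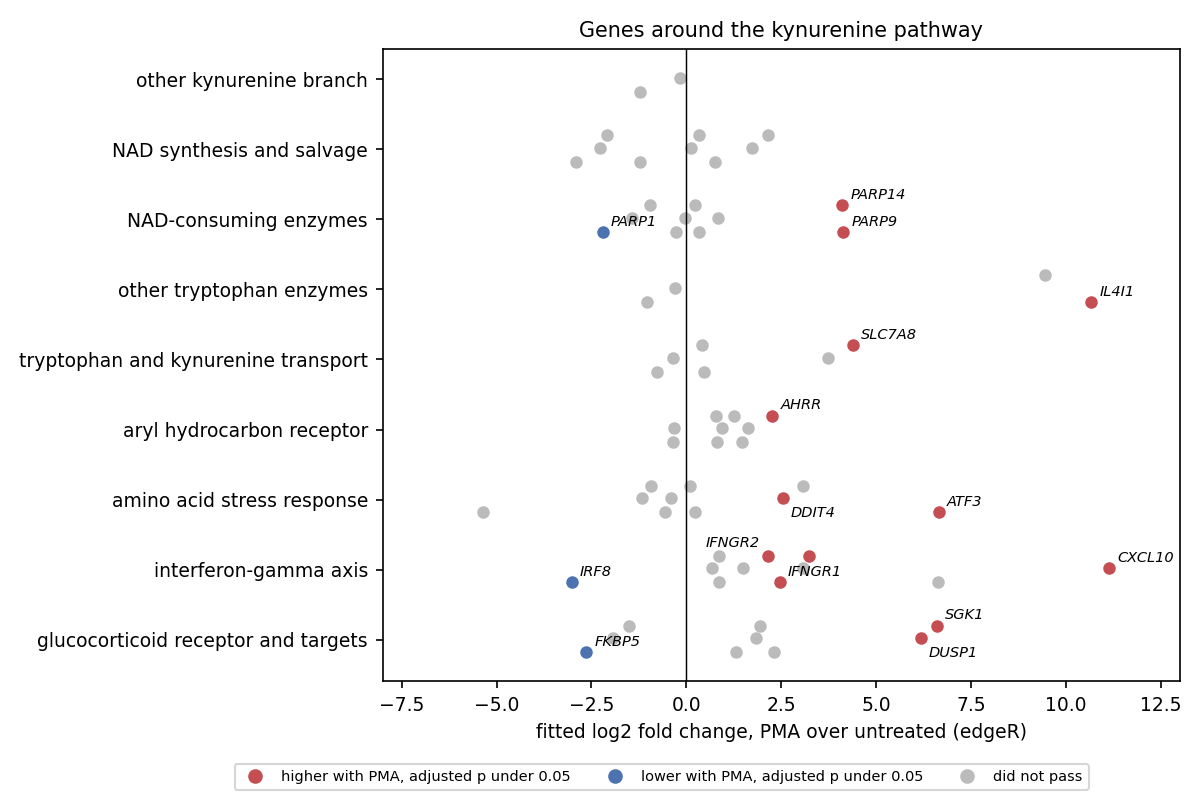
Fitted log2 fold change, PMA over untreated, of each tested gene in the 9 lists around the pathway, 1 point per entry. The 13 entries called higher and the 3 called lower by edgeR (adjusted p under 0.05) are coloured, with names for all but 1 of those called higher, and IL4I1 and CXCL10 lie furthest to the right, where fitted values of genes near 0 counts depend on the prior count.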

How the data were processed

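Per the labels' protocols, poly(A) RNA of U937 cells went into barcoded Ion Total RNA-Seq libraries. HISAT2 2.1.0 and StringTie 2.1.1 are named, without roles, in the submitters' processing notes. Build, annotation, counter and strand setting are not stated there. The authors deposited estimated counts per gene, not scaled between libraries. These were whole numbers, so rounding changed 0 values. A second table deposited by the authors holds a signal (count times 1 factor per library), a log2 ratio and log2 mean, and a p-value and q-value per gene from a test that the labels do not name.

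Here, edgeR 4.0.16 in R 4.3.3 was run on the 4 libraries with TMM scaling and no block. Genes were filtered with filterByExpr, and quasi-likelihood p-values of the 16451 left were adjusted by Benjamini-Hochberg (threshold 0.05). Each SE was derived from the log2 fold change and the F value. The lot in the titles numbers the libraries in both groups, and deviations of libraries of the same lot from the group means correlated at 0.154, so the lot as a block was an alternative. Other alternatives were RLE and upper-quartile factors, no filter, 5 CPM in 2 libraries, DESeq2 1.42.0, limma-voom (limma 3.58.1) and leaving out each library. Folds against 0 use a floor of 3 counts per library. Promoters are RefSeq's, matched by symbol, and transcript lengths and exonic overlaps are from GENCODE release 29, which may not be the authors' annotation. All 9 members are named, with up to 3 genes per list by smallest p, 1 called in the opposite direction, and the 5 genes nearest in profile to TDO2, KYNU and KMO. The values of 1 gene that the rule named are not reported here. Members and lists were chosen with earlier results of these data known.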

Additional observations from a re-analysis of the deposited data

Results flagged for a closer look

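For 3 genes the lots moved in opposite ways, and the difference between lots was not tested, since each lot has 1 library per group. HAAO had a log2 ratio of PMA to untreated of 0.138 in lot 1 and −1.97 in lot 2. QPRT had −1.31 in lot 1 and 0.115 in lot 2. KYAT3, a kynurenine aminotransferase gene, had −0.553 in lot 1 and 0.336 in lot 2.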

How the results depend on the processing

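The 6 tested members kept the direction of their fitted change in each alternative in which they were tested, KMO not being tested under the 5 CPM filter. As the members were chosen with this contrast known, this is a description. Where 1 library is left out, the lone library of its group is assumed to vary like the other group. With upper-quartile scaling the median change over all genes was −0.17 (log2), against 0.00. Over all genes, 705 were higher and 332 lower. DESeq2 gave 2127 and 1684, limma-voom 1149 and 636, and a filter of 5 CPM in 2 libraries 974 and 721. Leaving out 1 library gave 424 to 1830 higher and 79 to 1085 lower genes, the lowest without PMA replicate 2 and the highest without untreated replicate 1. In the lists around the pathway, 13 genes were higher and 3 lower. DESeq2 gave 23 higher and 8 lower, the 5 CPM filter 5 lower, and leaving out 1 library 9 to 27 higher and 0 to 5 lower. With the lot as a block 12 were higher and 1 lower, while the members' calls did not change. Of the 40 genes followed through the alternatives, KYAT3 alone changed direction, with a log2 fold change of 0.25 without untreated replicate 1 (adjusted p = 0.688), against −0.17 with all libraries (adjusted p = 0.856) and a low of −0.53 without untreated replicate 2. The causes of these changes were not tested. The spread between libraries was wide, with 0.626 as edgeR's common coefficient of variation and 2 libraries per group.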
